A study of Homo sapiens with 25 samples.

Results

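The metallothioneins are described here across 3 human cell lines exposed to erlotinib. Members were the probe sets annotated to exactly 1 of the symbols MT1E, MT1F, MT1G, MT1H, MT1M, MT1X and MT2A. This rule found 11 probe sets for these 7 genes, among 19775 genes that had a probe set with a single symbol. A probe set is the group of short probes that an Affymetrix array summarises as 1 value. The study used 25 arrays to follow cells after addition of erlotinib, an inhibitor of the EGFR kinase, and the values are log2 GCRMA values. Erlotinib was added at 10 µM to cells plated 24 h before in medium with 10% serum. BT20 cells were collected at 0 min (4 arrays) and at 30 min, 6 h and 24 h after addition (3 arrays each). MDA-MB-453 cells were collected at 24 h and at 0 min (3 arrays each), and so were cells of a line labelled only MCF (3 arrays each). Changes are given against the 0 min cells of the same line unless another time is named. No cells kept for 24 h without drug are among the groups, so drug and time in culture cannot be told apart. The labels do not say whether replicates were separate cultures, so p-values measure the spread between these samples, which may be technical.

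Metallothioneins are small, cysteine-rich proteins that bind zinc and copper and can also bind cadmium. Their genes are known targets of MTF1, a zinc-sensing transcription factor that binds metal response elements in their promoters, and some also respond to glucocorticoids and oxidants. MT2A and the MT1 genes are expressed in many tissues, whereas MT3 is best known from brain and MT4 from stratified epithelium. The coding sequences of the MT1 and MT2 genes are very alike, so a probe for 1 gene can bind the transcript of another.

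The 7 member genes lie in 1 stretch of 15 annotated genes on chromosome 16, which runs in the order MT2A, MT1E, MT1M, MT1F, MT1G, MT1H and MT1X for the members. The RefSeq promoter table (GRCh38.p14) held 3 of them. The 250 bases before each start are shown on the plus strand because the metal response elements through which these genes are known to be read lie there: MT2A at chr16:56608334-56608583, MT1H at chr16:56669564-56669813 and MT1X at chr16:56682220-56682469. Capitals mark the metal response core (TGCACNC or TGCGCNC) and, in MT2A, an AP-1 site (TGACTCA), each searched on both strands, and none of the matches overlap.
MT2A: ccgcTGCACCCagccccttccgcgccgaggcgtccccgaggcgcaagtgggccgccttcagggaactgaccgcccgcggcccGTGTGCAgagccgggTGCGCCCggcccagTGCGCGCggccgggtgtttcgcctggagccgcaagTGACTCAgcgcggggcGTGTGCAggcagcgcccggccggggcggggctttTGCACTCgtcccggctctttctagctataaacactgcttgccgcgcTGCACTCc
MT1H: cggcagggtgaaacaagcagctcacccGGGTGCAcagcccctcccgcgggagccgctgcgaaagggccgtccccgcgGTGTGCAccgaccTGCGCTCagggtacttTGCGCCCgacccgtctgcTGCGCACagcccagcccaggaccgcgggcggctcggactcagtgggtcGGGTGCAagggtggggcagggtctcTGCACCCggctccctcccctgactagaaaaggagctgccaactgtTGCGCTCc
MT1X: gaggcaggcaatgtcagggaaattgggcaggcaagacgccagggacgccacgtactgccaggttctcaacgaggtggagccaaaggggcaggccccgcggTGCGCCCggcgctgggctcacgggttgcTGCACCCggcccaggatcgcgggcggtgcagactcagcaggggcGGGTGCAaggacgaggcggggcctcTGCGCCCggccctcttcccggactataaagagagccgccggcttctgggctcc
The core matched 7 times in MT2A, 8 times in MT1H and 4 times in MT1X. At least 1 match was present in 24.8% of the 35116 promoters of the table, at least 4 in 0.37% and at least 7 in 0.0313%. The AP-1 site occurred in the MT2A window and in 4.2% of all promoters. A match is a description of these letters and does not show that a factor bound there.

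BT20 and MDA-MB-453 are established breast carcinoma lines, and the labels do not say which MCF line was used. EGFR and the basal keratin KRT5 averaged 12.2 each in BT20, against 3.55 and 2.62 in MDA-MB-453, while KRT14, another basal keratin, averaged only 3.78 in BT20. ERBB2 averaged 11.1 and FGFR4 11.4 in MDA-MB-453, and ESR1 (12.6), TFF1 (13.4) and PGR (8.56) were high in MCF. ESR1 also averaged 8.83 in BT20, a line usually classed as estrogen receptor negative. Of markers of other cells, the leukocyte marker PTPRC did not exceed 2.51 on any array and the endothelial marker PECAM1 reached 4.90. The fibroblast marker COL1A1 was not low, averaging 9.21 in BT20, 11.1 in MDA-MB-453 and 8.41 in MCF. COL3A1, also read for fibroblasts, averaged 2.34, 2.55 and 5.22 in these lines. The MCF arrays appear to have been normalized apart from the others, with a 75th percentile of 7.27 to 7.32 against 7.65 to 7.81, so MCF levels were not tested against the other lines. BT20 0 min replicate 4 stood apart: it correlated at 0.989 to 0.992 with the 6 h arrays and at 0.964 to 0.969 with the other 0 min arrays, so BT20 results at 6 h are also given against it alone.

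Of the 11 member probe sets, 9 for 6 genes had a log2 value above 4 on at least 3 of the 25 arrays and were tested. All 9 have names ending in _x_at, which Affymetrix gives to probe sets whose probes match other transcripts, so values of members are not independent and a change cannot be assigned to a single gene. The other 2 stayed low throughout. MT1M (217546_at) lay between 1.52 and 2.85 and the second probe set of MT1G (210472_at) between 1.71 and 2.15. MT1G is therefore described by its other probe set, 204745_x_at, which lay between 7.11 and 10.78. Differences below are in log2 units, where a loss of 1 leaves 50% of the signal, with standard errors from limma and p-values adjusted over all 29774 probe sets tested.

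Before treatment the metallothioneins were higher in BT20 than in MDA-MB-453. All 9 tested probe sets were higher in BT20 0 min cells than in MDA-MB-453 0 min cells, where 34.3% of all probe sets tested were called higher and 36.7% lower. MT2A, the expressed MT2 gene of human cells, measured 12.970, 12.963, 12.998 and 13.025 in BT20, against 11.552, 11.750 and 11.257 in MDA-MB-453. The lines did not overlap, and the difference was 1.47 ± 0.12 (SE, adjusted p = 6.59e-09), or 2.77-fold. For MT1E the probe sets gave very different sizes. Probe set 212859_x_at read 12.42, 12.53, 12.07 and 12.15 in BT20, against 5.44, 6.03 and 5.75 in MDA-MB-453, a difference of 6.56 ± 0.18 (adjusted p = 2.63e-15). Probe set 216336_x_at, also annotated to MT1E, differed by 1.83 ± 0.22 (adjusted p = 1.40e-06).

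MT1F was higher in BT20 by 3.82 (213629_x_at) and 3.49 (217165_x_at), which is 14.1-fold and 11.2-fold. MT1X was higher by 2.17 (204326_x_at) and 2.22 (208581_x_at), MT1G (204745_x_at) by 1.93 and MT1H (206461_x_at) by 1.76. The median over the 9 probe sets was 2.17, against -0.04 over all probe sets tested. None of the 9 overlapped between the lines. Over all probe sets tested, 31.3% did not overlap with BT20 higher and 33% with BT20 lower. In MCF 0 min cells, given without a test, MT2A read 11.86, 10.04 and 11.91 and the MT1E probe set 212859_x_at read 2.88, 3.04 and 3.13, below the level of 4, whereas 216336_x_at read 7.04, 6.41 and 6.79. For MT2A the MCF arrays spanned those of MDA-MB-453, while BT20 lay above both, with the MCF arrays on a scale normalized apart.

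**Figure D1:**
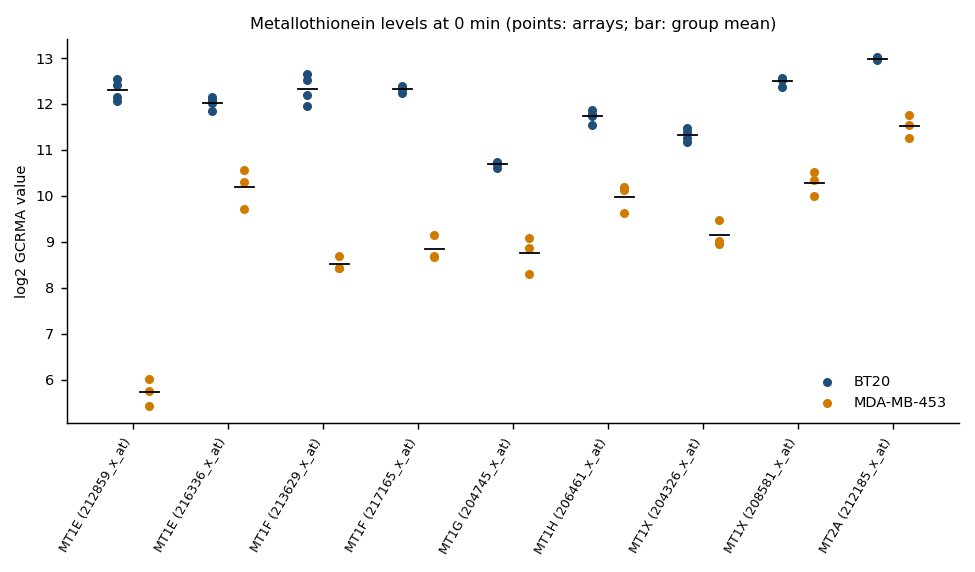
Log2 GCRMA value of each tested metallothionein probe set at 0 min in BT20 (4 arrays) and MDA-MB-453 (3 arrays); each point is an array and each bar a group mean. Every BT20 array lies above every MDA-MB-453 array, by 1.47 on average for MT2A and by 6.56 for the MT1E probe set 212859_x_at.

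In BT20 all tested metallothioneins were lower 24 h after erlotinib. The 9 probe sets fell by 1.26 to 2.61 on the log2 scale, with no overlap between 24 h and 0 min arrays. Over all probe sets tested 17.4% were called lower and 20.5% higher, and 19.2% lay without overlap below and 22% above. The median over the 9 was -1.74, against -0.01 over all probe sets. Because the 9 may share targets, they are not 9 separate results. In these bulk samples, fewer expressing cells and less RNA per cell cannot be told apart.

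MT2A measured 11.682, 11.730 and 11.778 at 24 h, against 12.970, 12.963, 12.998 and 13.025 at 0 min. The 24 h arrays lay below all 0 min arrays, with a difference of -1.26 ± 0.08 (adjusted p = 3.05e-07) that left 41.8% of the 0 min signal. At 0 min MT2A stood near the top of the scale, since the highest value of any probe set on these arrays was 13.9 to 14.1. Among the tested probe sets the deepest loss was in 213629_x_at, annotated to MT1F. This probe set measured 9.72, 9.74 and 9.69 at 24 h, against 12.52, 12.66, 11.96 and 12.19 at 0 min, a difference of -2.61 ± 0.19 (adjusted p = 4.97e-07). The other MT1F probe set, 217165_x_at, measured 10.17, 10.20 and 10.20 at 24 h, against 12.32, 12.40, 12.35 and 12.24 at 0 min, a difference of -2.14 ± 0.08 (adjusted p = 6.02e-09). The signal left at 24 h was 16.3% by the first and 22.7% by the second.

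MT1X, which lies at the far end of the gene stretch from MT2A, measured 8.804, 9.155 and 8.997 at 24 h, against 11.385, 11.476, 11.184 and 11.259 at 0 min, by 204326_x_at. Its difference was -2.34 ± 0.11 (adjusted p = 1.90e-08), and by 208581_x_at it was -1.94 ± 0.11 (adjusted p = 7.33e-08). The signal left was 19.7% and 26.1%. MT1G (204745_x_at) measured 8.86, 9.07 and 8.92 at 24 h, against 10.60, 10.69, 10.72 and 10.74 at 0 min, a difference of -1.74 ± 0.09 (adjusted p = 3.85e-08). All 3 arrays at 24 h again lay below the 0 min arrays. MT1H (206461_x_at) measured 10.14, 10.23 and 10.09 at 24 h, against 11.79, 11.87, 11.55 and 11.74 at 0 min, a difference of -1.58 ± 0.10 (adjusted p = 1.40e-07). MT1E measured 10.64, 10.64 and 10.50 at 24 h, against 12.42, 12.53, 12.07 and 12.15 at 0 min, by 212859_x_at, and the times did not overlap. Its differences were -1.70 ± 0.14 (212859_x_at, adjusted p = 1.89e-06) and -1.40 ± 0.10 (216336_x_at, adjusted p = 6.63e-07). These falls were deep for the array as a whole: 0.49% of probe sets tested had a more negative difference than the MT1F probe set 213629_x_at, and 3.59% than MT2A. MT1M, read only near the bottom of the scale, measured 2.18, 2.13 and 2.07 at 24 h and 2.64, 2.67, 2.85 and 2.25 at 0 min and was not tested.

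**Figure D2:**
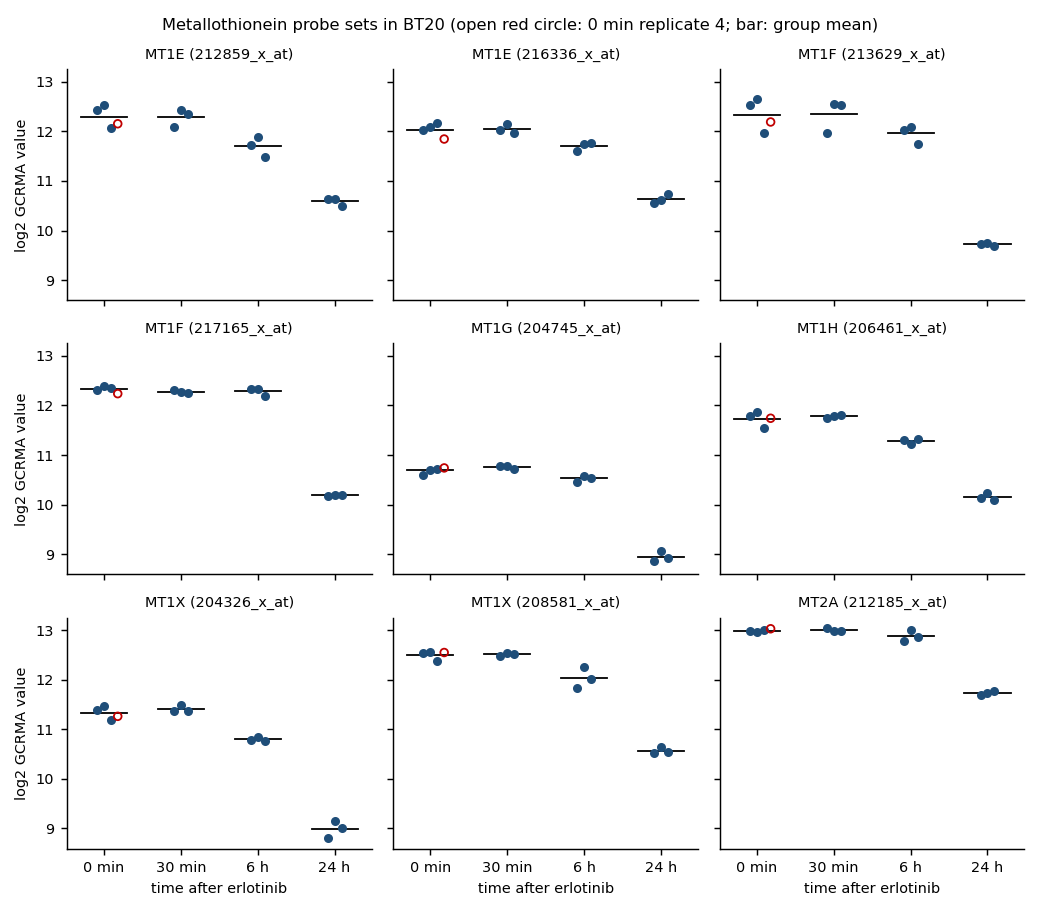
Log2 GCRMA value of each tested metallothionein probe set in BT20 at 0 min, 30 min, 6 h and 24 h after erlotinib; each point is an array, each bar a group mean, and the open circle is 0 min replicate 4. The 24 h arrays lie below all others in every panel, while at 6 h all arrays lie below 0 min in 6 of 9 panels.

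At 30 min no member was called. MT2A measured 13.039, 12.987 and 12.987 at 30 min, and 12.963 to 13.025 at 0 min. The 9 differences from 0 min were -0.05 to 0.08 and all 9 overlapped, where 0.00336% of all probe sets were called higher and 0.00672% lower, and 1.7% and 2.15% did not overlap. None of the 9 had an unadjusted p under 0.05 either, and over all probe sets 3 were called and 1265 had such a p. For MT2A the 95% interval of the difference was -0.17 to 0.20.

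At 6 h the differences were small and uneven. All 9 differences from 0 min were negative, from -0.60 to -0.04 with a median of -0.37, against 0.00 over all probe sets. Of these, 5 probe sets for 3 genes were called lower, where 22.7% of all probe sets were called lower and 23.3% higher, and 6 of 9 did not overlap with the 0 min arrays (19.7% of all in each direction). MT1H measured 11.31, 11.22 and 11.32 at 6 h, against 11.79, 11.87, 11.55 and 11.74 at 0 min, and the times did not overlap. MT1E changed by -0.60 ± 0.14 (212859_x_at, adjusted p = 0.00692) and -0.33 ± 0.10 (216336_x_at, adjusted p = 0.0234), MT1X by -0.53 ± 0.11 (204326_x_at, adjusted p = 0.00359) and -0.47 ± 0.11 (208581_x_at, adjusted p = 0.00594), and MT1H by -0.45 ± 0.10 (adjusted p = 0.00432). MT2A measured 12.783, 12.994 and 12.868 at 6 h, against 12.970, 12.963, 12.998 and 13.025 at 0 min. These overlapped, and the difference of -0.11 ± 0.08 was not called (adjusted p = 0.31). MT1F (-0.37 and -0.04) and MT1G (-0.16) were not called either. The call of the MT1E probe set 216336_x_at was lost without 6 h replicate 1 or 2 or without 0 min replicate 1, 2 or 3 (adjusted p 0.0509 to 0.093).

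Against 0 min replicate 4 alone, the 0 min array most like the 6 h arrays, none of the 9 was called. The differences of the 6 h mean from that array were -0.46 for MT1H, -0.47 and -0.51 for MT1X, -0.45 and -0.14 for MT1E, -0.23 and 0.05 for MT1F, -0.21 for MT1G and -0.14 for MT2A. In the members that array differed little from the other 0 min arrays: by -0.25 to 0.07, with a median absolute difference of 0.09 against 0.41 over all probe sets. That comparison rests on a single 0 min array, and 1383 of all probe sets were called in it, against 13719 with all 4.

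Most of the fall came between 6 h and 24 h. The change at 6 h was 8.53% of that at 24 h for MT2A, 9.32% for MT1G, 1.95% and 14.3% for MT1F, and 22.8% to 35.1% for the probe sets of MT1E, MT1H and MT1X. Between the 24 h and the 6 h arrays, a comparison added after the data were seen, all 9 probe sets were called lower (23.7% of all probe sets were, and 25% were called higher). MT2A changed by -1.15 ± 0.09 (adjusted p = 2.65e-06) and the MT1F probe set 213629_x_at by -2.24 ± 0.20 (adjusted p = 6.73e-06). The differences of the others were -1.08 and -1.10 for MT1E, -1.13 for MT1H, -1.47 and -1.81 for MT1X, -1.58 for MT1G and -2.09 for the second MT1F probe set. None of the 9 overlapped between 24 h and 6 h, where 34.6% of all probe sets did not overlap on the lower side and 35.4% on the higher.

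In MDA-MB-453 the metallothioneins had higher means at 24 h, with more spread between arrays than in BT20. All 9 differences were positive, 0.45 to 1.54 with a median of 0.86, against -0.01 over all probe sets. Only 3 probe sets for 2 genes, MT1E and MT1F, were called higher, where 2.81% of all probe sets were called higher and 1.45% lower. The groups did not overlap in 7 of 9, against 14% of all probe sets on the higher side and 13.2% on the lower.

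MT1E measured 6.87, 7.57 and 7.38 at 24 h, against 5.44, 6.03 and 5.75 at 0 min, by 212859_x_at. This 2.90-fold difference (1.54 ± 0.23, adjusted p = 0.0263) had no overlap. MT1F measured 9.83, 9.73 and 10.18 at 24 h, against 8.67, 9.16 and 8.69 at 0 min, by 217165_x_at, and differed by 1.08 ± 0.19 (adjusted p = 0.0363). Its other probe set, 213629_x_at, differed by 0.89 ± 0.15 (adjusted p = 0.0345). MT2A measured 12.06, 12.02 and 12.39 at 24 h, against 11.55, 11.75 and 11.26 at 0 min. All 24 h arrays lay above all 0 min arrays, but the difference of 0.64 ± 0.17 was not called (adjusted p = 0.105). Nor were those of MT1G (0.94), MT1H (0.69), MT1X (0.45 by 204326_x_at and 0.86 by 208581_x_at) and the MT1E probe set 216336_x_at (0.62).

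The arrays of MDA-MB-453 deviated together across members. At 24 h replicate 3 lay above its group mean in all 9 probe sets and replicate 2 below it in 8, with medians of 0.29 and -0.33, and at 0 min replicate 2 lay above in all 9 and replicate 3 below in 8 (0.29 and -0.26). The same arrays had a median deviation of at most 0.05 in size over all probe sets tested, which normalization holds near 0. Their deviations over all probe sets had an SD of 0.26 to 0.33, about the size of the member medians. Whether the shift is particular to the members was not tested. The 3 calls were lost when any 1 of the 6 arrays was left out, although the 3 differences then stayed between 0.77 and 1.74.

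In MCF no member, and no probe set on the array, was called at 24 h (limma, 0% of 29774 in either direction, with 1774 at an unadjusted p under 0.05). The 9 differences were 0.05 to 1.38 with a median of 0.53, against 0.01 over all probe sets, and 3 members had an unadjusted p under 0.05. These were MT1F by both probe sets and MT1X by 204326_x_at, which were also the 3 whose groups did not overlap (5.95% of all probe sets on the higher side and 6.21% on the lower). MT1F measured 10.69, 10.17 and 10.69 at 24 h, against 8.64, 9.28 and 9.48 at 0 min, by 217165_x_at, a difference of 1.38 ± 0.28 (adjusted p = 0.457). By 213629_x_at it was 1.32 ± 0.44 (adjusted p = 0.711), and MT1X by 204326_x_at differed by 0.53 ± 0.21 (adjusted p = 0.79).

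MT2A in MCF measured 11.83, 10.61 and 12.76 at 24 h, against 11.86, 10.04 and 11.91 at 0 min. Replicate 2 was the lowest at both times, and the spread (SD 1.08 and 1.06, n = 3 each) exceeded the difference of 0.46, whose 95% interval ran from -1.272 to 2.198. MT1G (0.59), MT1H (0.29), the MT1X probe set 208581_x_at (0.69) and MT1E (0.05 by 212859_x_at, 0.48 by 216336_x_at) overlapped between 24 h and 0 min. MCF 24 h replicate 2 lay below its group mean in all 9 members, with a median of -0.69. Over all probe sets the median, which normalization holds near 0, was 0.05 and the SD of the deviations 0.47.

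**Figure D3:**
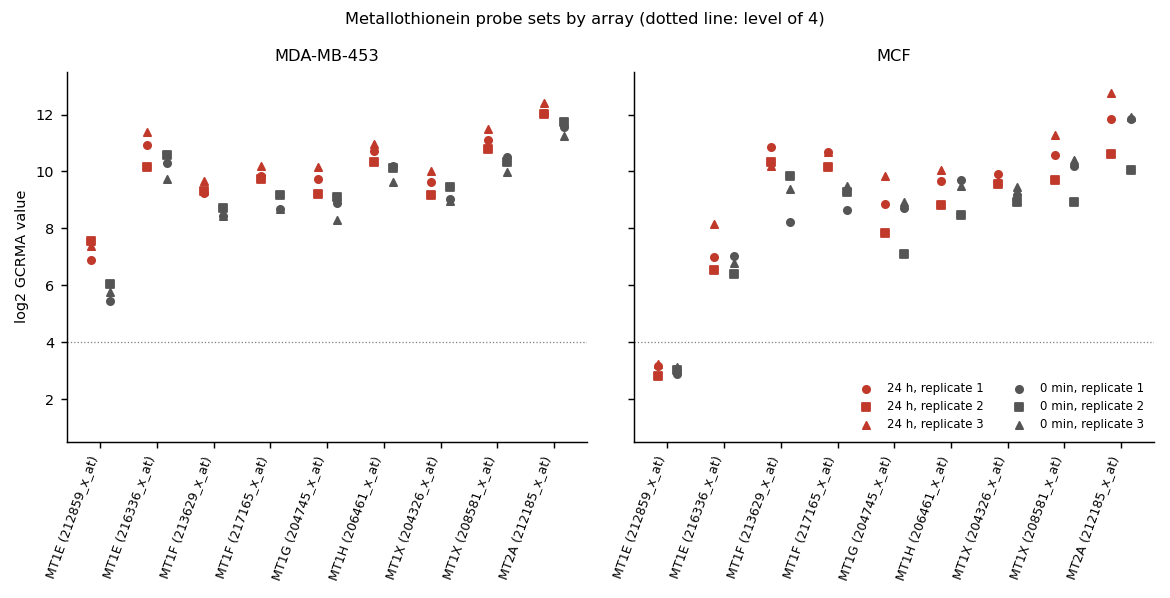
Log2 GCRMA value of each tested metallothionein probe set on every array of MDA-MB-453 and MCF, 24 h (red) left of 0 min (grey), with a marker shape per replicate and a dotted line at 4. In MDA-MB-453 7 of the 9 probe sets do not overlap between the times, in MCF 3 of 9, and the MT1E probe set 212859_x_at lies below 4 on all MCF arrays.

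The change in BT20 differed from that in each of the other lines. Against MDA-MB-453, the difference of the 24 h changes (BT20 minus MDA-MB-453) was negative and called for all 9 probe sets, where 7.84% of all probe sets were called lower and 8.95% higher. It was -1.89 ± 0.34 for MT2A (adjusted p = 0.000342) and -3.50 ± 0.30 for the MT1F probe set 213629_x_at (adjusted p = 3.11e-08), with a median of -2.79. Against MCF, all 9 were called as well (2.31% of all were called lower and 4.44% higher), from -1.72 ± 0.49 for MT2A (adjusted p = 0.0354) to -3.93 ± 0.43 for MT1F by 213629_x_at (adjusted p = 4.84e-06). The MT1E probe set 212859_x_at, was below 4 on every MCF array and passed the filter only through the other lines. Its MCF change of 0.05 is that of a value near background, so its difference of -1.75 restates the fall in BT20. With each line given its own spread, an alternative added after the data were seen, all 9 differences against MDA-MB-453 were still called. Against MCF 6 of 9 were, with adjusted p of 0.239 for MT2A, 0.0985 for MT1G and 0.0538 for MT1H. Over all alternatives together, 957 to 18792 of all probe sets were called against MCF and 2802 to 12972 against MDA-MB-453. The call of MT2A against MCF was also lost without any 1 of the BT20 24 h arrays, MCF 0 min replicate 2 (-1.11) or MCF 24 h replicate 1 (-1.67) or 3 (-1.21), with adjusted p of 0.0525 to 0.145. That of the MT1E probe set 216336_x_at was lost without MCF 0 min replicate 2 or 3 or MCF 24 h replicate 1 or 3 (adjusted p 0.0646 to 0.0946).

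The changes in MDA-MB-453 and MCF were not told apart. None of the 9 differences between them (MDA-MB-453 minus MCF, -0.43 to 1.49) was called, where limma called 0.366% of all probe sets higher and 0.104% lower. The MT1E probe set 212859_x_at had an unadjusted p under 0.05 (1.49 ± 0.36, adjusted p = 0.0702), and this probe set was below 4 on every MCF array. For MT2A the 95% interval of the difference ran from -0.88 to 1.22.

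**Figure D4:**
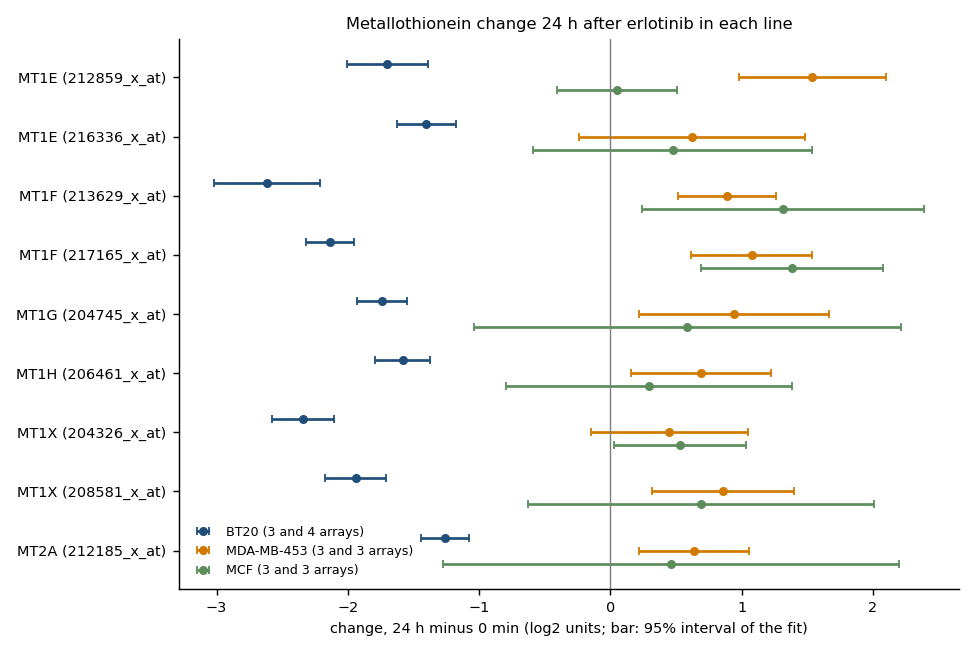
Change of each tested metallothionein probe set at 24 h (24 h minus 0 min, log2 units) in BT20, MDA-MB-453 and MCF, with the 95% interval of the fit in each line. All BT20 intervals lie below 0 (MT2A -1.44 to -1.08), while the intervals of the other lines lie at or above 0 or span it.

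The members varied together in BT20. Over its 13 arrays the 36 pairs of tested probe sets had Pearson correlations of 0.92 to 0.996 with a median of 0.98. In MDA-MB-453 (6 arrays) they ranged from 0.51 to 0.99 with a median of 0.90, and in MCF (6 arrays) from -0.11 to 0.99 with a median of 0.58. The low values in MCF included MT1F with MT2A (-0.08 by 213629_x_at and 0.32 by 217165_x_at), whereas MT1G and MT2A correlated at 0.99. The points share arrays and the probe sets may share targets, so these values are descriptions. Likewise MT1HL1 (211456_x_at), a close relative outside the member list, changed by -1.58 in BT20 at 24 h (adjusted p = 3.04e-07). It differed by 0.81 in MDA-MB-453 (adjusted p = 0.109). MT3 and MT4 were below 4 on all arrays. The array held a probe set of 3 of the 12 other metallothionein genes and pseudogenes listed, of which MT1HL1 alone was tested.

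Among genes of metal sensing and known MTF1 targets, 2 of the 10 tested rose and 2 fell in BT20 at 24 h, with a list median of 0.09. As given above, 20.5% of all probe sets were called higher and 17.4% lower at this time, so these counts are near the shares over the whole array. The 2 that fell move zinc. SLC30A1, the plasma membrane exporter of zinc and an MTF1 target, measured 9.74, 9.79 and 9.73 at 24 h, against 11.74, 11.78, 11.88 and 11.48 at 0 min. No 24 h array reached a 0 min array, and the difference was -1.96 ± 0.10 (adjusted p = 3.85e-08). Another SLC30A1 probe set fell by 2.21 on the log2 scale (228181_at) and the remaining probe set was not called (242716_at, -0.31, adjusted p = 0.14). SLC39A10, a zinc importer that MTF1 represses in mouse cells, measured 9.71, 9.85 and 9.87 at 24 h, against 11.45, 11.50, 11.56 and 11.56 at 0 min, a difference of -1.70 ± 0.10 (adjusted p = 1.08e-07). CEBPA, a transcription factor, rose by 1.76 (adjusted p = 0.000166) and NDRG1, a gene induced by several stresses including nickel, by 1.00 (adjusted p = 0.00031). MTF1 itself was not called by any of its 3 probe sets (-0.26, -0.11 and -0.04). By 227150_at it measured 8.85, 9.01 and 9.10 at 24 h, against 8.62, 8.70, 8.76 and 10.03 at 0 min, where the high array is replicate 4. With a batch term that sets this array with the 6 h arrays, MTF1 differed by 0.29 (adjusted p = 0.0226) and 4 of the 10 genes rose and 2 fell. The share of all probe sets called with that term is not given here, so these 2 counts are not read as a result about the list. At 6 h the MTF1 probe sets disagreed (-0.85, -0.87 and 0.88, all 3 called), and 227150_at differed by -0.12 from replicate 4 alone (adjusted p = 0.68).

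The change of SLC30A1 differed between the lines. In MDA-MB-453 SLC30A1 measured 11.28, 11.47 and 11.39 at 24 h, against 11.50, 11.34 and 11.23 at 0 min, and its difference of 0.03 ± 0.12 was not called (adjusted p = 0.942). In MCF it measured 10.92, 11.08 and 10.72 at 24 h, against 10.43, 10.54 and 10.44 at 0 min, a difference of 0.43 ± 0.17 without overlap that was not called (adjusted p = 0.8). The change in BT20 differed from that in MDA-MB-453 by -1.99 ± 0.14 (adjusted p = 2.46e-09) and from that in MCF by -2.40 ± 0.21 (adjusted p = 1.55e-07). The changes in MDA-MB-453 and MCF were not told apart (-0.41 ± 0.21, adjusted p = 0.847). Probe sets 228181_at and 242716_at are not compared between lines here. They differed by -0.32 and -0.23 in MDA-MB-453 and by 0.78 and 0.02 in MCF, none of them called. At 6 h in BT20 SLC30A1 changed by -0.59 ± 0.10 (adjusted p = 0.00152), and by -0.36 ± 0.11 against replicate 4 alone (adjusted p = 0.1).

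SLC39A10 had negative differences in all 3 lines. In MCF it measured 9.42, 9.49 and 8.52 at 24 h, against 9.89, 10.41 and 10.32 at 0 min, a difference of -1.06 ± 0.32 without overlap that was not called (adjusted p = 0.679). The change in BT20 differed from that in MCF by -0.64 ± 0.27, which was not called (adjusted p = 0.188). In MDA-MB-453 SLC39A10 differed by -0.26 ± 0.12 (adjusted p = 0.287), and the change in BT20 differed from it by -1.44 ± 0.18 (adjusted p = 7.38e-06).

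SLC30A1 and SLC39A10 count again in the transporter lists. Of the SLC30 exporters of zinc, SLC30A1 was the 1 of 7 tested that was called in BT20 at 24 h. With the batch term 2 rose and 2 fell, a count for which the share over all probe sets is not given here. Of the SLC39 importers, 2 of 12 rose and 7 fell (20.5% and 17.4% over all probe sets), with a list median of -0.33 against -0.01 over all probe sets. Besides SLC39A10, the falls with the smallest p were in SLC39A4, the importer of dietary zinc (-1.47, adjusted p = 7.29e-06), and SLC39A8 (-1.09, adjusted p = 1.23e-06). SLC39A2, 1 of the 2 importers counted as risen, measured 6.20, 5.83 and 6.69 at 24 h, against 2.53, 2.10, 2.06 and 2.51 at 0 min, a difference of 3.94. It exceeded the level of 4 only on the BT20 24 h arrays and so passed the filter only through the group where it is high. Its call is therefore no separate support, and the size of this rise is uncertain. With the batch term SLC39A11 rose by 1.525 (adjusted p = 8.85e-07), where 2 of 12 importers rose and 8 fell. The share over all probe sets is not given for that term. In MDA-MB-453 1 of 7 exporters was called, SLC30A4 (0.52, adjusted p = 0.0482), and 0 of 12 importers. Over all probe sets 2.81% were called higher and 1.45% lower in that line. Over the alternatives the count of all probe sets called there ran from 0 to 8807. List calls in that line, here and below, were not followed through the alternatives. In MCF neither list had a call, and no probe set on the array was called.

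**Figure D5:**
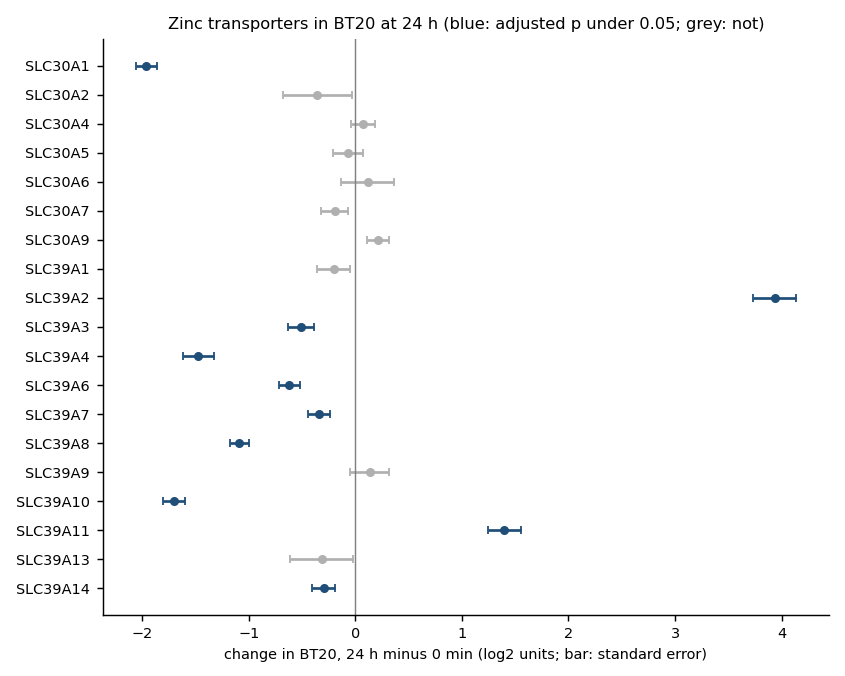
Change of each tested SLC30 and SLC39 gene in BT20 at 24 h (24 h minus 0 min, log2 units, 1 probe set per gene); bars are standard errors, blue marks an adjusted p under 0.05 and grey the rest. SLC30A1 is the exporter that fell (-1.96), and among importers SLC39A10 and SLC39A4 fell. SLC39A2 differed by 3.94 but passed the filter only through its BT20 24 h arrays.

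Of the genes of copper handling, 4 of 15 rose and 1 fell in BT20 at 24 h (20.5% and 17.4% over all probe sets), with a list median of -0.02 against -0.01 over all. The metalloreductase STEAP4 rose by 0.97 (adjusted p = 0.000377), the exporter ATP7A by 1.27 (adjusted p = 0.0042) and the importer SLC31A1 by 0.31 (adjusted p = 0.0194), while the exporter ATP7B fell by 0.65 on the log2 scale (adjusted p = 0.00109). In MDA-MB-453 1 of 15, STEAP3, was called (-0.69, adjusted p = 0.047), where 2.81% of all probe sets were called higher and 1.45% lower.

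Of the genes of metal and protein stress, 3 of 9 rose and 1 fell in BT20 at 24 h (20.5% and 17.4% over all probe sets), with a list median of 0.20. HMOX1, the heme-degrading enzyme induced by metals and oxidants, measured 8.56, 8.48 and 8.61 at 24 h, against 6.23, 5.88, 6.09 and 6.09 at 0 min. It rose by 2.48 ± 0.14 (adjusted p = 7.92e-08), opposite in sign to the metallothioneins. HSPB1, a small heat shock protein, rose by 1.00 (adjusted p = 0.00076) and GCLM, a subunit of the glutathione-making ligase, by 0.45 (adjusted p = 0.0108), while the co-chaperone BAG3 fell by 0.56 on the log2 scale (adjusted p = 0.00248). In MDA-MB-453 HMOX1 measured 6.04, 5.63 and 5.58 at 24 h, against 7.20, 7.29 and 7.86 at 0 min. There it fell by 1.70 on the log2 scale (adjusted p = 0.0187), where the metallothionein differences were positive. In MCF HMOX1 differed by 0.14 ± 0.31 (adjusted p = 1), with the same sign as the metallothionein differences there, and neither was called. The change of HMOX1 differed between BT20 and MDA-MB-453 by 4.18 ± 0.25 (adjusted p = 2.28e-10) and between BT20 and MCF by 2.34 ± 0.37 (adjusted p = 0.000272).

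Of the glucocorticoid receptor and its known targets, 3 of 9 rose and 4 fell in BT20 at 24 h (20.5% and 17.4% over all probe sets), with a list median of -0.23. TSC22D3, a glucocorticoid-induced leucine zipper gene, rose by 4.03 (adjusted p = 4.56e-09) and NFKBIA, an inhibitor of NF-kB, by 1.70 (adjusted p = 0.000339), while the kinase SGK1 fell by 1.87 (adjusted p = 6.67e-06) and the co-chaperone FKBP5 by 0.83 on the log2 scale (adjusted p = 0.000429). In MDA-MB-453 NDRG1 rose by 1.10 (adjusted p = 0.0103) and CEBPA fell by 0.64 on the log2 scale (adjusted p = 0.0269) among metal-sensing genes. Of the glucocorticoid targets there, KLF9 rose by 0.91 (adjusted p = 0.0279) and SGK1 fell by 0.83 on the log2 scale (adjusted p = 0.0349), 1 call in each direction of 9. Over all probe sets 2.81% were called higher and 1.45% lower in MDA-MB-453.

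At 6 h in BT20, 3 of 10 metal-sensing genes rose and 1 fell, among zinc exporters 4 of 7 rose and 1 fell, among importers 1 of 12 rose and 2 fell, among copper genes 5 of 15 rose and 7 fell, among stress genes 3 of 9 rose and 3 fell, and among glucocorticoid targets 4 of 9 rose and 1 fell. Over all probe sets 23.3% were called higher and 22.7% lower at 6 h, and with lists this short several of the counts are near these shares. Against 0 min replicate 4 alone CEBPA (0.91), SLC30A4 (0.63), HMOX1 (0.79), TSC22D3 (2.10) and KLF9 (1.17) were called higher and SGK1 (-1.13) lower. No importer or copper gene was called. In that comparison only 1383 of all 29774 probe sets were called, both directions together. The lack of calls in these 2 lists is therefore not read as a result about them. At 30 min no gene of these lists was called, where 0.00336% of all probe sets were called higher and 0.00672% lower.

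The genes most like MT2A over the 13 BT20 arrays, by Pearson correlation among 9340 genes with a mean of at least 6, were NT5E (0.99), which encodes the ectonucleotidase CD73, the receptor tyrosine kinase AXL (0.99), the collagen gene COL15A1 (0.99), the interleukin-7 receptor IL7R (0.99) and the monoamine oxidase MAOA (0.99). AXL averaged 3.98 at 24 h and 9.05 at 0 min, and NT5E 8.84 at 24 h and 10.55 at 0 min. The most opposite were PSMB9, an immunoproteasome subunit (-0.99, averaging 10.9 at 24 h and 9.03 at 0 min), SLC66A3 (-0.99) and SLC46A3 (-0.99). Over the 6 MDA-MB-453 arrays, among 9125 genes, they were the coagulation factor gene F7, MLPH, ADIRF, the transcription factor ELF3 and the respiratory chain subunit NDUFA11 (0.991 to 0.996), none of which is among those of BT20. The points of each ranking are arrays, and in BT20 they fall into the 24 h arrays and the earlier ones.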

How the data were processed

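Total RNA was hybridised to 25 Affymetrix arrays, and the authors deposited log2 values made with GCRMA 2.20.0 in R 2.11.1, per the submitters' processing notes. GCRMA corrects background from probe sequence, normalizes the arrays and summarises probes. Low values are therefore estimates near background and high ones can be compressed. The table held 54613 probe sets, of which 41091 had 1 gene symbol in the platform annotation, 1801 several and 11721 none. No probe set with several symbols included a member. Probe sets above 4 on at least 3 of 25 arrays (29774) were fitted with limma 3.58.1 in R 4.3.3 (lmFit, eBayes), each line alone, the 19 arrays of BT20 and MDA-MB-453 for their 0 min levels, and all 25 arrays with a weight per line for differences of changes. P-values were adjusted by Benjamini-Hochberg over all probe sets tested and called under 0.05. The script was tested on simulated data, and the outcome is not given here. In an earlier simulation, pooling all lines gave many false calls for MCF, which is why changes within a line were fitted in that line alone. Related genes were read by 1 probe set per gene (highest mean), and up to 4 called per list with the smallest p were named. Members and lists were chosen with earlier results of these data known. Array number limits the precision. Alternatives were filters, normalization, weights, a replicate block, a batch term for BT20 0 min replicate 4 with the 6 h arrays, and leaving out each array. No pair of arrays was identical.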

Additional observations from a re-analysis of the deposited data

Results flagged for a closer look

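In BT20 0 min cells the MT1X probe set 208581_x_at had 1 array, replicate 3 at 12.37, apart from the other 3 at 12.53 to 12.56, with a gap of 0.853 of the group's range. Chance sets off this criterion in about 1 of 20 groups.

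The 24 h change differed between BT20 and MDA-MB-453 (BT20 minus MDA-MB-453) for all 9 tested probe sets: -3.24 and -2.03 for MT1E, -3.50 and -3.21 for MT1F, -2.68 for MT1G, -2.27 for MT1H, -2.79 and -2.80 for MT1X and -1.89 for MT2A. It also differed between BT20 and MCF (BT20 minus MCF): -1.75 and -1.88 for MT1E, -3.93 and -3.52 for MT1F, -2.33 for MT1G, -1.88 for MT1H, -2.87 and -2.63 for MT1X and -1.72 for MT2A. Each was tested as a difference of changes. The MT1E probe set 212859_x_at, with -1.75, was below 4 on every MCF array, so that value restates its fall in BT20.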

How the results depend on the processing

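All 9 metallothionein probe sets in BT20 at 24 h, in the 0 min comparison of BT20 with MDA-MB-453 and in the difference of changes between BT20 and MDA-MB-453 were called under every alternative that kept them, and no probe set of these comparisons changed direction. In BT20 at 6 h the 5 calls became 3 with 1 probe set per gene, 2 with all 25 arrays in an unweighted fit and 0 with the batch term, where MT1F (217165_x_at) turned to 0.0477. In MDA-MB-453 the 3 calls became 1 with 1 probe set per gene, 0 with the replicate block, 0 without any 1 array, and 9 with weights per array. For BT20 minus MCF the 9 calls became 6 with each line's own spread, 8 with both lines fitted alone and 7 to 9 without single arrays. In MCF the 0 calls became 2 with all 25 arrays and 9 with weights per array. For MDA-MB-453 minus MCF the 0 calls became 1 without the filter, 1 with all 25 arrays, 7 with weights per array and 0 to 1 without single arrays. Over the alternatives the calls among all probe sets reached 28916 in MCF, 8807 in MDA-MB-453 and 15006 for MDA-MB-453 minus MCF. A high member count can therefore follow the count over the whole array and is not a result about the members. The weights per array did not converge in MDA-MB-453 and MCF (0.234 to 56.9 and 0.0307 to 840). Nor did they in the fit of the 19 arrays of BT20 and MDA-MB-453 (0.069 to 2.94) or of all 25 (0.0441 to 5340). Outside the BT20 fit, counts with weights per array therefore rest on unstable weights, also for the 0 min levels and the differences of changes.

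The labels do not say whether replicate numbers pair the arrays, and same-numbered arrays did not all deviate together. Between 24 h and 0 min, the deviations correlated at 0.801 for MCF replicate 2 and at -0.708 for MDA-MB-453 replicate 3. Each deviation is from a mean of 3 arrays, so these correlations cannot settle whether the arrays were paired. The replicate block left 9 of 9 members called in BT20 at 24 h and 5 at 6 h. Over all alternatives together, 5358 to 17187 of all probe sets were called at 24 h and 1383 to 21100 at 6 h. The counts over all probe sets under the block itself are not given here for these times. The member counts are therefore not read as a result about the members. Over all probe sets the block gave 9 calls at 30 min, against 3 without it.

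Small differences changed sign. At 30 min these were, with weights per array, MT1E (216336_x_at) -0.0057, MT1F (213629_x_at) -0.0493, MT1H -0.0050 and MT1X (208581_x_at) -0.0081. With quantile normalization MT1E (212859_x_at) became 0.0138, and with median centring MT1X (208581_x_at) became -0.0067. With the replicate block, and likewise with the batch term, MT1E (216336_x_at) became -0.0467 and MT1F (213629_x_at) -0.0313. With weights per array MT1G became -0.0898 and MT2A -0.0779 in MCF, and MT1X (204326_x_at) 0.0849 for MDA-MB-453 minus MCF. Without single arrays the 30 min ranges were -0.081 to 0.0957 and -0.0467 to 0.0587 for MT1E, -0.1073 to 0.2095 for MT1F (213629_x_at), -0.018 to 0.089 for MT1H, -0.037 to 0.0243 for MT1X (208581_x_at) and -0.002 to 0.0273 for MT2A, and at 6 h -0.0713 to 0.0087 for MT1F (217165_x_at). In MCF they were -0.0328 to 0.1812 for MT1E (212859_x_at), -0.0842 to 0.6412 for MT1H and -0.151 to 1.0237 for MT2A. For MDA-MB-453 minus MCF they were -0.1938 to 0.6142 for MT1E (216336_x_at), -0.766 to 0.035 for MT1F (213629_x_at), -0.1482 to 0.9275 for MT1G, -0.282 to 0.136 and -0.242 to 0.6283 for MT1X, and -0.3883 to 0.7863 for MT2A. The causes were not tested.

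Counts over all probe sets moved more. They ranged over the alternatives between 1383 and 21100 for BT20 at 6 h (13719 as reported), 5358 and 17187 at 24 h (11283), 6541 and 20169 for 24 h against 6 h (14477), 0 and 22 at 30 min (3), 0 and 8807 in MDA-MB-453 (1269), and 0 and 28916 in MCF (0). For the 0 min levels they were 9433 to 25269 (21147), for BT20 minus MDA-MB-453 2802 to 12972 (5001), for BT20 minus MCF 957 to 18792 (2009) and for MDA-MB-453 minus MCF 32 to 15006 (140). Signals near 4 are close to background, which limits MT1M and the MT1E probe set 212859_x_at in MCF.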
